A study of Mus musculus with 12 samples.

Results

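Gsdmd encodes gasdermin D, the protein that makes the membrane pore of pyroptosis, a lytic and inflammatory form of cell death. The gene was represented by 1 named probe, A_51_P172231, whose accession NM_026960 in the scanner files matched Gsdmd (RefSeq gene ID 69146, protein coding). It was 1 of 60691 transcript probes on the array and 1 of 45 that could be given a gene symbol. The probe was chosen by name and by no cut on its values, though earlier results of these data were known. In the RefSeq annotation of assembly GRCm38.p6 the neighbouring protein-coding genes of Gsdmd are Zc3h3 and Mroh6. That annotation lists 4 transcripts for the gene, of which 1 is curated, and the arrays' signal at the probe does not tell transcripts apart.

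Podocytes are the epithelial cells that wrap the capillaries of the kidney's filter, and the mouse line MPC5 is widely used as their model. Control and METTL3 knockdown MPC5 cells were compared, both kept for 24 h in 30 mmol/L glucose, which stands in culture for the diabetic state. The control group (3 arrays) had received a control siRNA (siNC) and the knockdown group (3 arrays) an siRNA against METTL3 (Si#METTL3). No group in normal glucose was analysed here, so the values concern the knockdown within high glucose only. The series' design text calls the replicates biological, and all come from 1 cell line. In both groups the code in the title of replicate 3 lacks the HG prefix of the other replicates. The code of knockdown 2 begins with the whole code of knockdown 1. The labels do not say what the codes stand for or how the cultures are related.

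Each array carried a pair of RNA fractions of 1 culture. RNA that was immunoprecipitated (IP) was labelled with Cy5, and RNA left in the supernatant (Sup) with Cy3, so that 6 arrays gave 12 samples. METTL3 is the catalytic subunit of the enzyme complex that writes N6-methyladenosine (m6A) into RNA, and the comparison asks what its depletion does to the RNA of both fractions. The labels do not name the antibody of the precipitation, and the IP fraction is called IP RNA throughout. Cy5 over Cy3 follows how a transcript divides between the fractions, and Cy5 plus Cy3 follows its summed signal, called total RNA below. The dyes were normalized on each array, so that sum is not a sum of molecules over both fractions. The dyes were not swapped, so a dye bias of the probe stays in each ratio, while a bias common to all arrays cancels in the difference between groups.

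Gasdermin D is made as an inactive precursor. Inflammatory caspases, activated in inflammasomes or by bacterial lipopolysaccharide inside the cell, cut it between its amino-terminal and carboxy-terminal parts, and the freed amino-terminal part assembles into pores that release interleukins and can burst the cell. Loss of podocytes is a hallmark of diabetic kidney disease, and pyroptosis is among the forms of death studied there. The arrays measured the transcript. Cleavage, pores and cell death were not measured by them, and a lower signal in a culture cannot tell fewer cells with the transcript from less transcript per cell.

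The 6 arrays differed in ways that bear on every value below. The share of transcript probes that the scanner software flagged as well above background ran from 35.06% to 50.28% in Cy5 and from 75.13% to 81.16% in Cy3. Control replicate 2 had the lowest Cy5 share and was scanned apart from the other 5 arrays. A header code began with the same number on control 1 and all knockdown arrays and with another on control 2 and control 3. The headers do not say what that number stands for. Mettl3 itself was not among the 45 probes with a gene symbol, so the knockdown could not be checked with named probes. Nearly all of the 60691 transcript probes had no symbol and were not assigned to genes here. Of 32 markers of cell types (14 of podocytes, the others of mesangial, endothelial, tubular and blood-derived cells) 0 had a named probe. The cell type therefore rests on the labels.

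Gsdmd gave a bright and well-measured signal in both fractions of all 6 cultures. Neither its level nor its division between the fractions passed a test for a difference between control and knockdown cells. The sign of both differences depended on the processing. The probe was printed in 10 spots on each array, and 60 of 60 spots were well above background in both channels, with 0 saturated. The scanner software marked 3 Cy5 spots as outliers, all on control 2, and 3 Cy3 spots, of which 2 were on control 1 and 1 on knockdown 2. Those were left out of the means. The processed signal, from which the software has taken background and dye differences, is on an arbitrary intensity scale.

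In the IP fraction the mean Cy5 signal of Gsdmd was 3992, 2686 and 3115 on control arrays 1 to 3. For the knockdown arrays 1 to 3 it was 3833, 3535 and 2756. The groups overlapped, with the highest and the lowest array both among the controls. In the Sup fraction the Cy3 signal was 5270, 3794 and 4468 in the controls and 5145, 4625 and 3461 in the knockdown. Here the highest array was control 1 and the lowest was knockdown 3. Cy5 was below Cy3 in 60 of 60 spots, although with fixed dyes that order cannot be told apart from a dye bias.

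Group means of these unscaled signals lay close together. Cy5 averaged 3264 ± 666 in control and 3375 ± 556 in knockdown cells (SD, n = 3; exact two-sided permutation p = 0.9). Cy3 averaged 4511 ± 739 and 4410 ± 862 (SD, n = 3; exact permutation p = 0.9). The sum of both channels was 9262, 6480 and 7583 in control cells, against 8979, 8160 and 6217 in knockdown cells. Its means of 7775 ± 1401 and 7785 ± 1419 differed by far less than the SD of either group (n = 3; exact permutation p = 1). With 3 arrays against 3 this exact test cannot go below p = 0.1.

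**Figure D1:**
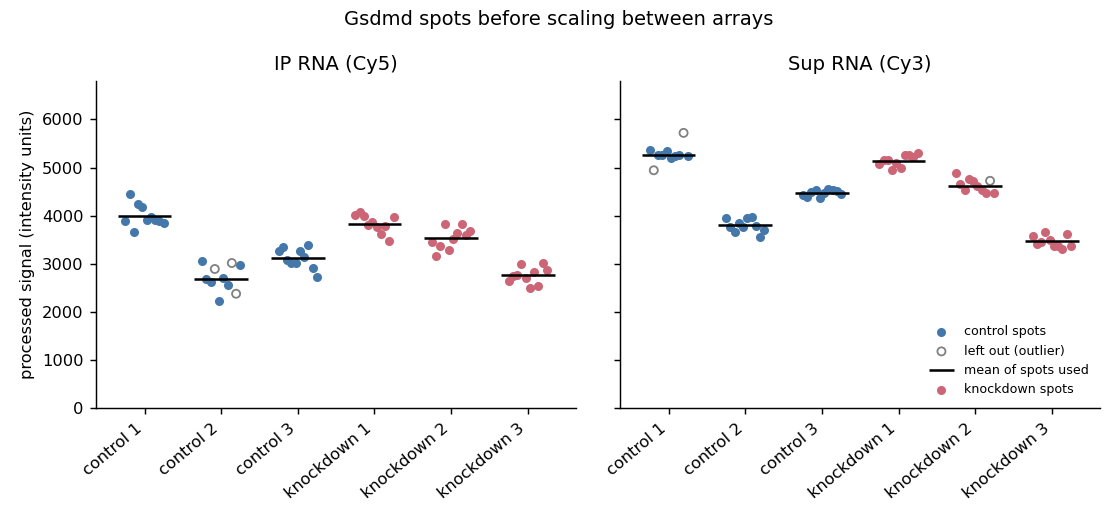
Processed signal of each Gsdmd spot (intensity units, linear axis from 0) in the IP fraction (Cy5, left) and the Sup fraction (Cy3, right) on the 6 arrays; each point is 1 spot, open points were left out as outliers and bars are the means of the spots used. The spots of an array lie close together, the control and knockdown arrays overlap in both fractions, and Cy5 is below Cy3 in 60 of 60 spots.

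In each channel the spots within an array varied less than the arrays did. Over spots, the SD of log2 Cy5 ran from 0.07 to 0.15 by array and that of log2 Cy3 from 0.02 to 0.05. Between arrays of a group, the SD of unscaled log2 Cy5 was 0.29 in control and 0.25 in knockdown cells, and that of log2 Cy3 was 0.24 and 0.30. The ratio went the other way. The SD of log2(Cy5/Cy3) over spots ran from 0.07 to 0.15 by array, against 0.06 in control and 0.05 in knockdown cells between arrays. The widest scatter over spots in both channels was on control 2, where Cy5 ran from 2214 to 3057 and Cy3 from 3548 to 3970. The spots are repeats of 1 hybridization, so they bear on the precision of an array's value and not on the difference between cultures.

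Before the scanner software's dye normalization the arrays stood in another order. The background-subtracted Cy5 signal of Gsdmd was 503, 1117 and 337 in control replicates 1 to 3, against 506, 947 and 318 in the knockdown replicates. The Cy3 signal was 1234, 1816 and 1081, then 1058, 1316 and 1164. Control 2 was the highest of the 6 in both channels on this scale, and it had the lowest Cy5 signal once dye-normalized. Local background was low beside these signals, from 16.5 to 19 in Cy5 and from 9 to 10 in Cy3. Group means were 652 ± 411 and 590 ± 323 in Cy5 (SD, n = 3; exact permutation p = 0.7) and 1377 ± 388 and 1179 ± 130 in Cy3 (SD, n = 3; exact permutation p = 0.6).

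To set arrays against each other, each log2 signal was taken less the array's 75th percentile over transcript probes, and the groups were compared with limma across all probes that were well above background on 3 or more of the 6 arrays. On this scale Gsdmd in IP RNA was 3.67, 4.67 and 3.42 in control replicates 1 to 3. The knockdown replicates were at 3.38, 3.89 and 3.45. Replicate 2 was the highest of each group, and control 2 stood above every other array by more than the spread of the other 5. The mean went from 3.92 ± 0.66 in control to 3.57 ± 0.27 in knockdown cells (SD, n = 3), a log2 difference of -0.35 with a 95% interval from -1.19 to 0.49. The difference did not pass the test (limma, adjusted p = 0.82 over 27796 probes; exact permutation p = 0.6).

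In Sup RNA the log2 levels were 3.90, 4.96 and 3.80 in the control replicates. The knockdown replicates were at 3.74, 4.21 and 3.71. The pattern was that of IP RNA, with control 2 alone far above the rest and knockdown 2 next to it. The mean went from 4.22 ± 0.64 to 3.88 ± 0.28 (SD, n = 3), a log2 difference of -0.33 (95% interval -1.09 to 0.42). It did not pass the test (limma, adjusted p = 1 over 48520 probes; exact permutation p = 0.5).

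Total RNA, the sum of both channels, was at 3.84, 4.94 and 3.67 on the log2 scale in control cells. In knockdown cells it was at 3.57, 4.07 and 3.60. The control mean was 4.15 ± 0.69 and the knockdown mean 3.75 ± 0.28 (SD, n = 3). The log2 difference was -0.40, with a 95% interval from -1.19 to 0.38, which is a fold of 0.756 with bounds of 0.439 and 1.30. It did not pass the test (limma, adjusted p = 0.82 over 48344 probes; exact permutation p = 0.5). The interval holds a decrease to 0.439 of the control level as well as an increase to 1.30 of it.

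**Figure D2:**
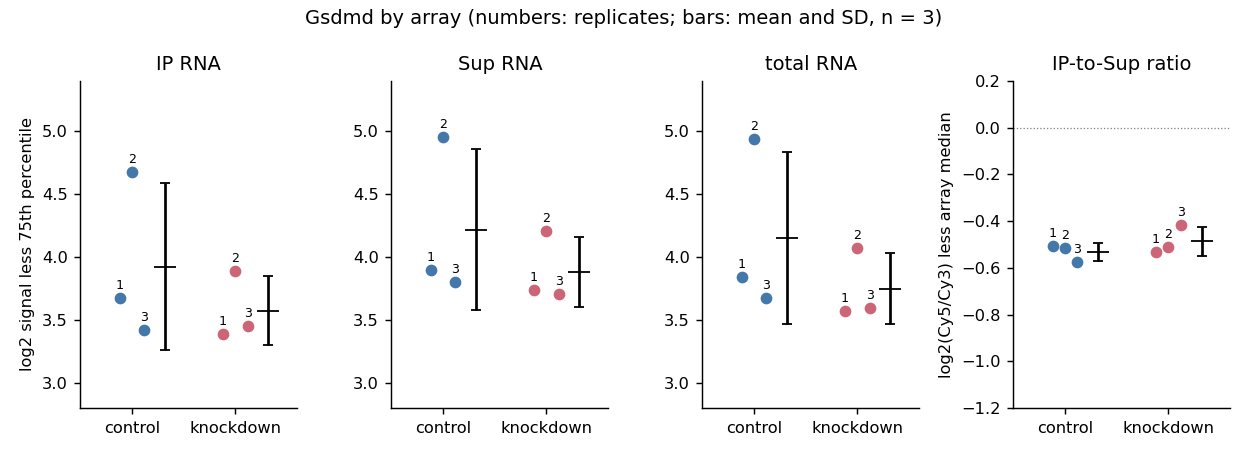
Gsdmd on each array in 4 measures: log2 signal less the array's 75th percentile for IP, Sup and total RNA, and log2(Cy5/Cy3) less the array median for the IP-to-Sup ratio; points are arrays with their replicate number, and bars are the group mean and SD (n = 3). In IP, Sup and total RNA control 2 stands above the other 5 arrays, and in the ratio all 6 arrays lie between -0.58 and -0.42.

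No probe passed the adjusted threshold of 0.05 in these 3 measures (0% of those tested), and Gsdmd shared that outcome with every other probe. At an unadjusted p under 0.05, 4.71% of probes passed in IP RNA (200 higher and 1109 lower in knockdown), 1.21% in Sup RNA (80 higher, 505 lower) and 4.78% in total RNA (156 higher, 2154 lower). Gsdmd was not among them. That split between higher and lower depended on the scaling: with the authors' constants per array and channel on the same spots and probes it was 676 higher and 322 lower in IP RNA, 437 and 128 in Sup RNA, and 1094 and 522 in total RNA. The median probe differed by -0.16 in IP RNA, -0.06 in Sup RNA and -0.15 in total RNA. Relative to that median Gsdmd differed by -0.19, -0.27 and -0.25. Of all tested probes, 30.7% in IP RNA, 13.9% in Sup RNA and 18.6% in total RNA had a lower difference than Gsdmd. With the replicate number as a block, 4582 probes passed the unadjusted threshold in total RNA in place of 2310, and 3499 in Sup RNA in place of 585, again without Gsdmd (limma, adjusted p = 0.57 in total RNA and 0.75 in Sup RNA).

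The size of the lower mean in knockdown cells rested on replicate 2, above all on control 2. Compared by replicate number, the knockdown array was lower in 3 of 3 pairs in Sup RNA, with log2 differences of -0.16, -0.75 and -0.10 in pairs 1 to 3, and in 3 of 3 in total RNA, with -0.27, -0.87 and -0.08. In IP RNA it was lower in 2 of 3 pairs, with -0.29, -0.79 and 0.03. Pair 2 had the largest difference in each of these 3 measures. Without both arrays of pair 2 the log2 difference was -0.13 in IP RNA (95% interval -0.73 to 0.47), -0.13 in Sup RNA (-0.58 to 0.33) and -0.17 in total RNA (-0.68 to 0.33). Without control 2 alone, which leaves knockdown 2 in the other group, the log2 difference was 0.03 in IP RNA (95% interval -0.55 to 0.60), 0.04 in Sup RNA (-0.48 to 0.55) and -0.01 in total RNA (-0.55 to 0.53). Against the median probe, Gsdmd total RNA differed by -0.25 with all 6 arrays, by 0.11 without control 2 and by -0.07 without pair 2. Without control 3 the differences were larger, at -0.60, -0.54 and -0.64. Control 2 was also the highest array for 33.0% of 45721 probes in total RNA and for 21 of 41 named ones. Its 75th percentile of total RNA was 7.72 on the log2 scale, below the 8.92 to 9.56 of the other arrays, and that percentile is what scaling subtracts. What made control 2 stand apart was not tested. The array and its scan cannot be told apart, since no other array shared that scan.

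The header code groups the arrays in another way. Control 1 and the 3 knockdown arrays share its leading number, and within them the log2 difference of Gsdmd was -0.10 in IP RNA, -0.01 in Sup RNA and -0.09 in total RNA. This takes the lone control array to vary like the knockdown arrays. With the number as a block in the fit over all 6 arrays the differences are the same by design, with 95% intervals from -1.33 to 1.13, from -1.10 to 1.08 and from -1.22 to 1.04. Control 2 and control 3 had no knockdown array beside them under the other number, so they cannot move the difference in that fit.

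The choice of scaling moved both the total RNA level of control 2 and the group difference, though not in step. With no scaling between arrays the log2 level of total RNA was 12.91 ± 0.26 in control and 12.91 ± 0.27 in knockdown cells (SD, n = 3), but the median probe then differed by 0.24, and Gsdmd differed from it by -0.24. With the constants of the authors' deposited table, outlier spots left out as before, the means were 6.24 ± 0.52 and 6.08 ± 0.31, and with quantile normalization of each channel 12.98 ± 0.19 and 12.84 ± 0.12 (SD, n = 3). Scaling on the 17 spike-in control probes gave 2.78 ± 0.42 and 2.38 ± 0.18. Control 2 stood 0.69 above the mean of the 6 arrays with the spike-in probes and 0.68 with the authors' constants. The log2 differences between groups were -0.40 and -0.16. With the 75th percentile, the spike-in probes or the authors' constants control 2 was the highest of the 6 arrays, under quantile normalization it came after control 1, and unscaled it was the fifth. In the authors' deposited table itself, which averages all spots with outliers kept, the Gsdmd values were 4.75, 5.44 and 4.36 for control IP and 4.66, 4.98 and 4.57 for knockdown IP. For Sup they were 5.23, 6.15 and 5.24, then 5.21, 5.77 and 5.08, so replicate 2 was again the highest of each group.

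**Figure D3:**
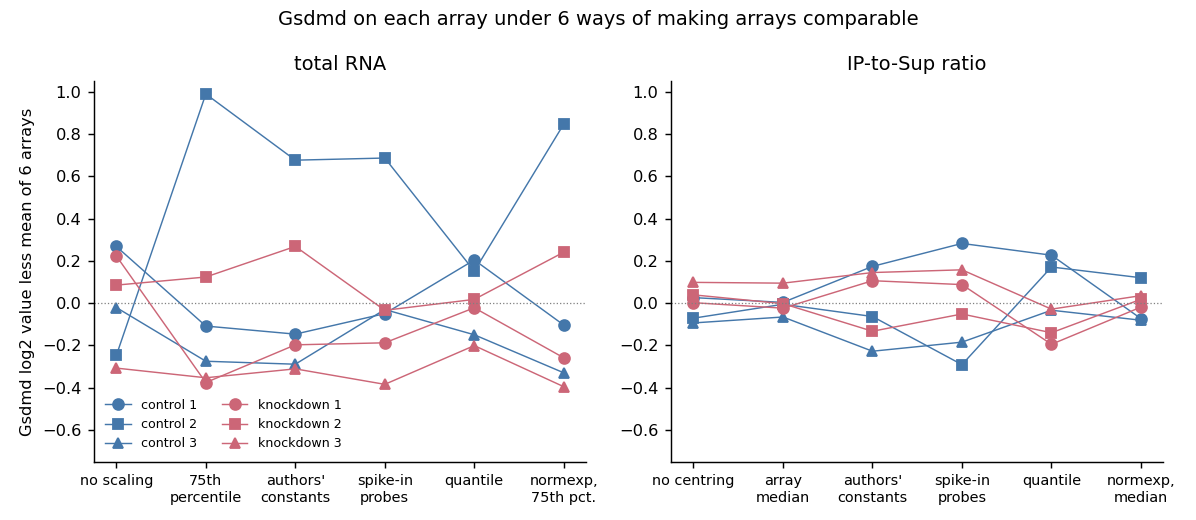
Gsdmd log2 value on each array less the mean of the 6 arrays, for total RNA (left) and the IP-to-Sup ratio (right), under 6 ways of making arrays comparable; each line follows 1 array only to identify it, and the categories have no order. In total RNA control 2 moves from the fifth place without scaling to the first with the 75th percentile, while the other 5 arrays lie between -0.40 and 0.27 under all 6.

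The IP-to-Sup ratio of Gsdmd lay close together in both groups. Cy5 over Cy3 of the processed signals was 0.758, 0.708 and 0.697 in the control replicates and 0.745, 0.764 and 0.796 in the knockdown replicates. Put as a share, Cy5 made up 43.1%, 41.5% and 41.1% of the summed signal in control and 42.7%, 43.3% and 44.3% in knockdown cells. The groups overlapped only in that control 1 stood above knockdown 1, and the means of the ratio were 0.721 ± 0.032 and 0.769 ± 0.026 (SD, n = 3; exact permutation p = 0.2). These are shares of signal on different dyes and not shares of molecules.

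Centred on each array's median, log2(Cy5/Cy3) was -0.51, -0.52 and -0.58 in control and -0.53, -0.51 and -0.42 in knockdown cells. All 6 arrays were below the median probe, and the arrays of both groups interleaved. The mean went from -0.53 ± 0.04 to -0.49 ± 0.06 (SD, n = 3), a log2 difference of 0.05 with a 95% interval from -0.33 to 0.42. That is a fold of 1.03 with bounds of 0.795 and 1.34, and it did not pass the test (limma, adjusted p = 1 over 27742 probes; exact permutation p = 0.5). No probe passed the adjusted threshold in the ratio either (0%), and 3.01% passed at an unadjusted p under 0.05 (461 higher, 374 lower), Gsdmd not among them. The median probe differed by -0.01, and 58.9% of tested probes had a lower difference than Gsdmd.

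In the setting reported above the ratio, unlike the levels, did not turn on control 2, without which the difference was 0.05 (95% interval -0.36 to 0.46). It was 0.02 within the 4 arrays that share a header number. The sign depended on the normalization. From background-subtracted signals without dye normalization the centred log2 ratio was -0.11, 0.62 and -0.09 in control and -0.03, -0.16 and -0.12 in knockdown cells, a difference of -0.24 (95% interval -0.83 to 0.35). Control 2 alone was above the median probe there, and control 1 and control 3 lay within the range of the knockdown arrays. Quantile normalization of each channel gave -0.28, -0.33 and -0.54 against -0.70, -0.65 and -0.53, also a difference of -0.24 (95% interval -0.68 to 0.20). Neither passed the test (limma, adjusted p = 0.86 and 0.95), and both intervals include the 0.05 given above.

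**Figure D4:**
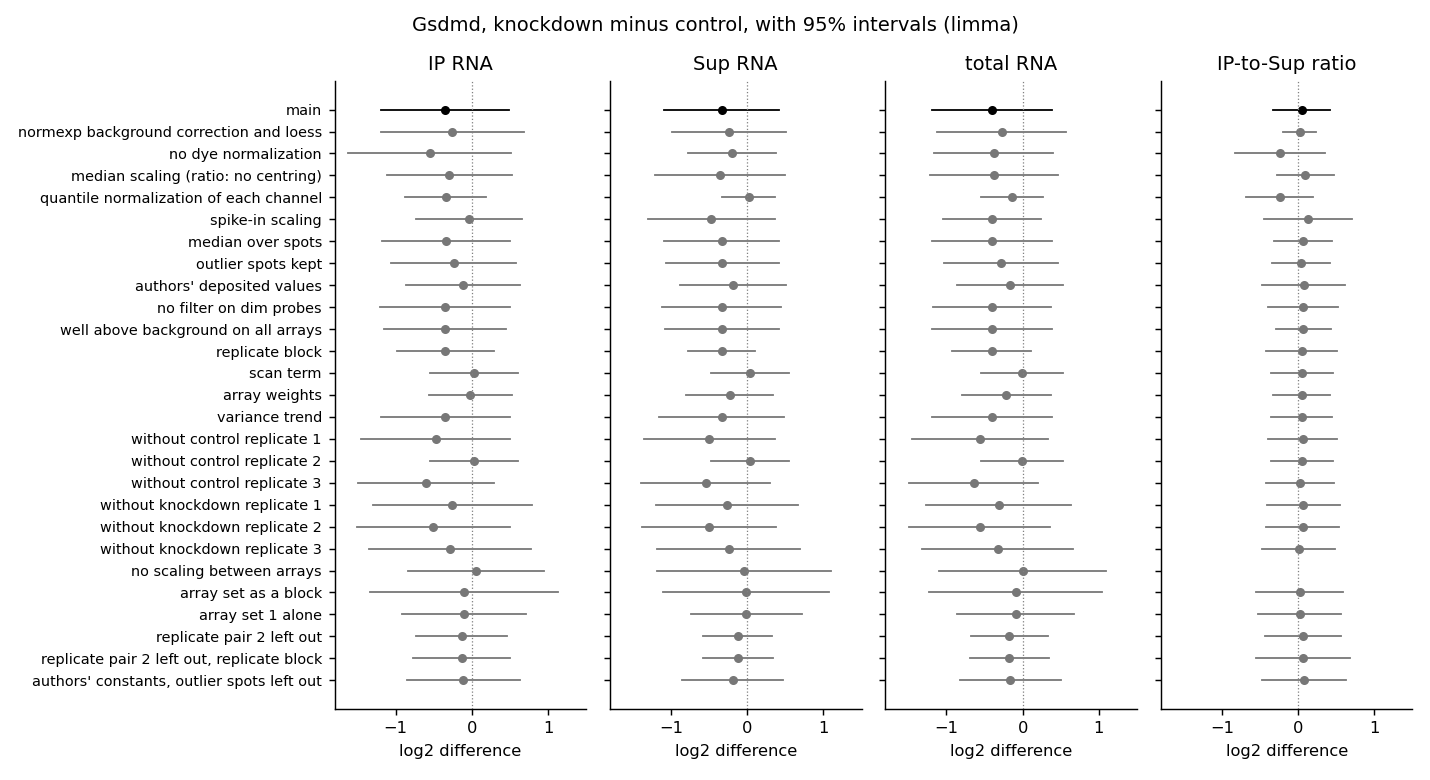
Log2 difference of Gsdmd, knockdown minus control, with its 95% interval (limma), in IP, Sup and total RNA and in the IP-to-Sup ratio, with the setting reported above at the top in black and each alternative below it in grey. Every interval spans 0, and the differences in IP, Sup and total RNA are close to 0 without control 2 and below 0 without both arrays of pair 2.

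The named genes whose pattern over the 6 arrays was most like that of Gsdmd were sought among the 26 other named probes that were well above background on every array in both channels. In total RNA these were H2-Q7, a class I histocompatibility gene (Pearson r = 0.97 over 6 arrays), Tm9sf1, a multi-pass membrane protein (r = 0.97), Duox1, which makes hydrogen peroxide (r = 0.97), Gpi1, the glycolytic phosphoglucose isomerase (r = 0.94), and Pex11a, a protein of the peroxisome membrane (r = 0.93). The arrays share their scaling and control 2 in these values. Without control 2 the coefficients were 0.81, 0.75, 0.73, 0.66 and 0.48, and the median over the 26 probes was 0.30 in place of 0.71. Their own log2 differences in total RNA were -0.64 for H2-Q7, -0.40 for Tm9sf1, -0.33 for Duox1, -0.27 for Gpi1 and -0.72 for Pex11a.

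In the IP-to-Sup ratio the most similar probes were those of Duox1 (r = 0.85 over 6 arrays), Hyal3, a member of the hyaluronidase family (r = 0.83), Nup50, a nuclear pore protein (r = 0.82), Carhsp1, an RNA-binding cold shock domain protein (r = 0.82), and Acaa2, the mitochondrial thiolase of fatty acid oxidation (r = 0.67). Without control 2 these were 0.92, 0.97, 0.83, 0.95 and 0.72, so these coefficients did not rest on that array. The choice of genes did in part, since H2-M2 went from 0.37 to 0.89 without it, above Nup50 and Acaa2. With all 6 arrays the median over the 26 probes was 0.17. The 5 genes' log2 differences in the ratio were small, from 0.03 for Carhsp1 to 0.12 for Duox1, beside the 0.05 of Gsdmd. With 6 arrays and signals of the same hybridizations these coefficients describe the arrays and carry no test.

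The genes that act around gasdermin D in pyroptosis could not be set beside it. Of 38 such genes, among them the other gasdermins, the inflammatory caspases, the inflammasome sensors Nlrp3, Nlrc4 and Aim2, the adaptor Pycard, the cytokines Il1b and Il18 that leave through the pore, and Ninj1, which ruptures the membrane after pore formation, 0 had a named probe. Whether other members of the pathway changed was therefore not measured with named probes here.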

How the data were processed

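Per the labels, IP RNA carried Cy5 and Sup RNA Cy3 on 6 arrays of MPC5 cells, 3 per group. Per the file headers, Agilent Feature Extraction 11.0.1.1 made the deposited spot intensity values. It subtracted background and then normalized the dyes on each array, linearly and by lowess, which gave the processed signal. The flags for outlier, saturated and well-above-background spots are the authors' deposited values. Log2 values of 27920 probes stand in a table deposited by the authors, each the log2 processed signal averaged over spots less a constant for the array and channel (largest departure 5e-09), and how the constants were set was not stated in the sources used.

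From these, outlier spots were left out per channel, spots of a probe were averaged, and log2 values were taken less the array's 75th percentile (IP, Sup and total RNA) or the array's median over tested probes (ratio). Tests covered probes well above background (0.5 or more of their spots) on 3 or more arrays in the channels of the measure, for total RNA in either one. The fit used limma 3.58.1 (lmFit, eBayes) in R 4.3.3, with version 1.17.8 of data.table and Benjamini-Hochberg adjustment at 0.05, after the code was tested on simulated data. The number of arrays limits the precision.

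Gene names came from probe accessions matched to RefSeq transcripts of GRCm38.p6; the headers name another build (mm9), so no coordinates are given. The named genes were Gsdmd, the 5 named probes most correlated with it in total RNA and the 5 in the ratio, and pyroptosis genes with a named probe. The gene and these lists were chosen with earlier results of these data known.

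Replicate numbers were checked as pairs by correlating deviations from the group means over probes. Pairs of equal number gave 0.32 to 0.58 in Sup RNA and 0.18 to 0.34 in total RNA, all above the mark of 0.1, but 0.07 to 0.30 in IP RNA and -0.0031 to 0.093 in the ratio. Arrays of unequal number gave -0.49 to 0.29 in Sup RNA and -0.34 to 0.19 in total RNA. In IP RNA they gave -0.30 to 0.23, and in the ratio -0.15 to 0.15. Only in Sup RNA did every pair of equal number stand above all those of unequal number. Alternatives were other background corrections, dye normalizations, scalings, summaries over spots, filters and fits, each array left out in turn, and, chosen after seeing the data, no scaling, the authors' constants on the same spots, pair 2 left out, and the header number as a block or alone. The normexp alternative used median spot signals with an offset of 50.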

Additional observations from a re-analysis of the deposited data

How the results depend on the processing

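Over 26 alternatives (25 for the ratio) Gsdmd passed the adjusted threshold in none. Some alternatives repeat the same difference by design. In IP, Sup and total RNA the filters, the replicate block and the variance trend cannot move it. The counts of signs that follow are therefore not counts of separate results. The log2 difference was negative in 23 of 26 for IP RNA, 23 of 26 for Sup RNA and 25 of 26 for total RNA, and positive in 23 of 25 for the ratio, with smallest adjusted p (limma) of 0.65, 0.75, 0.57 and 0.86. Its sign turned with a scan term (0.026 in IP RNA, 0.0355 in Sup RNA), which takes out control 2, with no scaling (0.0537 in IP RNA, 0.000443 in total RNA), with quantile normalization (0.0198 in Sup RNA, -0.242 in the ratio) and with no dye normalization (-0.241 in the ratio). Apart from the scan term, the cause was not tested. Leaving out each array in turn gave -0.601 to 0.026 in IP RNA, -0.543 to 0.0355 in Sup RNA, -0.642 to -0.01 in total RNA and 0.00941 to 0.0685 in the ratio, and 0 to 1 probes past the adjusted threshold in IP RNA, 0 in Sup RNA, 0 to 1 in total RNA and 0 in the ratio. The 1 probe came without control 2. In the paired fit, which takes replicate numbers as a block, the differences of Gsdmd are by design those of the main fit (-0.350, -0.334, -0.404 and 0.0453). The block changed no call.

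From 0 probes past the adjusted threshold, counts moved in IP RNA to 1 with the scan term, 2 with array weights, 1 without pair 2 (1 with the block too) and 3 in the arrays of 1 header number alone. In Sup RNA they moved to 12 with spike-in scaling, 1 with a variance trend, 72 without pair 2 with the block, 5 with the header number as a block and 6 in its arrays alone. In total RNA they were 1 with spike-in scaling, 1 with the scan term, 1 with array weights, 1 without pair 2 (1 with the block too), 7 with the header number as a block and 8 in its arrays alone. Gsdmd was not among them.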
